A study of Saccharomyces cerevisiae with 44 samples.

Results

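Glycogen is the branched glucose store of budding yeast (Saccharomyces cerevisiae), and 10 genes of its synthesis and breakdown were followed through the metabolic cycle of continuous cultures, an alternation of phases of high and low oxygen use. The genes were chosen by their systematic ids, and no measured value entered the rule: GLG1, GLG2, GSY1, GSY2, GAC1, GLC3, PGM2 and UGP1 on the synthesis side, and GPH1 and GDB1 on the breakdown side. They are 10 of 6692 yeast genes in the deposited table. All 10 passed the filter of a mean of at least 1 RPKM (reads per kilobase of gene, scaled to library size), as did 5820 genes in all.

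Strain CEN.PK122, a laboratory strain, was grown in fermentors and fed 1% glucose. In fast cycling the culture was diluted at 0.12 to 0.13 per hour and gave 20 libraries taken 13 min apart. In slow cycling it was diluted at 0.045 to 0.05 per hour and gave 24 libraries taken 36 min apart. Both were sampled over 2 cycles, so 1 cycle was 10 time points (130 min) in fast and 12 time points (432 min) in slow. The cultures of both conditions had been starved in batch before feeding began. No replicate culture is named in the labels, and each condition is read here as 1 culture, whose time points are the source of the spread behind every p-value. In bulk RNA, fewer cells that transcribe a gene and less of its RNA per cell cannot be told apart.

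In yeast, glycogen starts on glycogenin, a protein that attaches the first glucose units to itself. Phosphoglucomutase and UDP-glucose pyrophosphorylase make UDP-glucose, glycogen synthase adds its glucose to the chain, and the branching enzyme makes the branch points. Phosphorylase and the debranching enzyme release glucose again. Synthase and phosphorylase are also controlled by phosphorylation, which mRNA levels do not show. Yeast is known to lay down glycogen when growth slows or nutrients run short.

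Depth was 7.6 to 19.67 M reads in fast and 6.45 to 13.11 M reads in slow libraries. The external control RNAs took 0.433 to 1.60% of reads in fast and 0.679 to 1.27% in slow libraries. The lowest value of any of the 10 genes rested on 174 reads (GSY1 in slow), a counting error of 7.58%. The ribosomal protein gene RPL17B, a marker of the growth burst, was highest at time points 8 and 18 in fast and 12 and 24 in slow, and these are called the growth-burst time points. MRPL10, a mitochondrial ribosomal protein gene, was highest at time points 1 and 12 in fast and 1 and 13 in slow. POT1, which encodes the thiolase of fatty acid oxidation, was highest at time points 3 and 13 in fast and 2 and 14 in slow.

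Most of the 10 genes held a short known element upstream. The 500 bases before each start codon were searched on both strands for AGGGG, the core of the stress response element that the factors Msn2 and Msn4 are known to bind. AGGGG was present upstream of 8 of the 10 genes, at least 2 times in 7 and at least 3 times in 3. Over 5806 genes with a window of the same length, 34.5% held it at least once, 8.32% at least 2 times and 1.91% at least 3 times. PGM2 held 5 matches, UGP1 4, GLC3 3, GLG2, GSY1, GSY2 and GPH1 2 each, GDB1 1, and GLG1 and GAC1 0. The window of UGP1 lies wholly inside other annotated genes, and 162 of its 500 bases do for GLG2, so these windows are not intergenic sequence alone. The pattern TNAGGGAT, the core of the post-diauxic shift element, was searched in the same way and cannot match at the same place as AGGGG. It was found upstream of 1 of the 10 genes, GAC1, and of 4.12% of all genes. The windows were read from the RefSeq reference genome and not from a sequence of the strain grown here. A match is a run of letters and not a shown binding site.

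Shown here are the stretches from 480 to 181 bases before the start codon of PGM2, the gene with most matches and the widest fast cosine range among the 10, of the branching enzyme gene GLC3, of both synthase genes and of the phosphorylase gene GPH1. They are taken from the RefSeq genome, assembly R64 (the sequence of sacCer3), and not from a sequence of the strain grown here. They read 5′ to 3′ on the strand of the gene, with each AGGGG or its reverse complement CCCCT in capitals. PGM2 covers chrXIII:477787-478086 (minus strand), GLC3 chrV:132640-132939 (plus strand), GSY1 chrVI:176572-176871 (minus strand), GSY2 chrXII:660236-660535 (plus strand) and GPH1 chrXVI:860826-861125 (plus strand).
PGM2: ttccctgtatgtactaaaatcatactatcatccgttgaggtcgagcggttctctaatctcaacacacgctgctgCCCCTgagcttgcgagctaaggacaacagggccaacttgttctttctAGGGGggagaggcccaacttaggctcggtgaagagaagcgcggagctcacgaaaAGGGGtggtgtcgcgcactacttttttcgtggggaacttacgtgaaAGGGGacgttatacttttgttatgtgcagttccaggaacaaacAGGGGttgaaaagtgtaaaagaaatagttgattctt
GLC3: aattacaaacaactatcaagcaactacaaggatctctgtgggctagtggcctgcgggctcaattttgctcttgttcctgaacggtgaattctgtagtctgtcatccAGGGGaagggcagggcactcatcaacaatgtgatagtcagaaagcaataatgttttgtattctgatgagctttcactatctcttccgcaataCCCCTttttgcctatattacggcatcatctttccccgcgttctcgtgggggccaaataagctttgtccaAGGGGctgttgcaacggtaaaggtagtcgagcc
GSY1: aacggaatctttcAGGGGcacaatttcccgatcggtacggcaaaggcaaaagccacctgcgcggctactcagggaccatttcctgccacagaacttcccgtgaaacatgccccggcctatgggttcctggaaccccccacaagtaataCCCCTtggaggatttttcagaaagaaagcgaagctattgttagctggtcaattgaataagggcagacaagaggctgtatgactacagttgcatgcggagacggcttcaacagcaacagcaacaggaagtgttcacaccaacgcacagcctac
GSY2: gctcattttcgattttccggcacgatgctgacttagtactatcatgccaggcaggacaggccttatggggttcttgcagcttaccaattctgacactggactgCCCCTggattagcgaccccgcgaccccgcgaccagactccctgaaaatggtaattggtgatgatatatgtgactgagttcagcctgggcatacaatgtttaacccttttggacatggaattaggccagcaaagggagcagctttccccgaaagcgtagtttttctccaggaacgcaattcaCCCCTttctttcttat
GPH1: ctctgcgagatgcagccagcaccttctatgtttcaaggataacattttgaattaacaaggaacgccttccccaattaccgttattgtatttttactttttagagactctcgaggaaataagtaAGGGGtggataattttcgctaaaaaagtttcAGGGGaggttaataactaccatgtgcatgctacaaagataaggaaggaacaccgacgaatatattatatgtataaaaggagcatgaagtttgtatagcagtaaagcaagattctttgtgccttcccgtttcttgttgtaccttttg

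**Figure D1:**
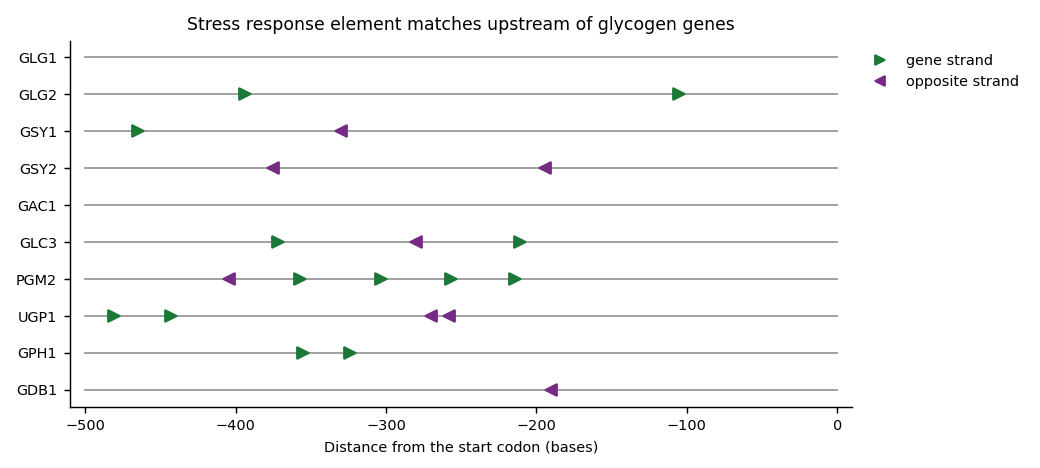
Position of each AGGGG match on the strand of the gene (green) or the opposite strand (purple) in the 500 bases upstream of the 10 genes; the x axis is the distance from the start codon in bases and each row is a gene. PGM2 has 5 AGGGG matches and UGP1 4, and GLG1 and GAC1 have none.

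In the fast condition the 10 genes moved nearly as a block. Cycling was tested with an exact rank test (JTK_Cycle type) with Benjamini-Hochberg adjustment over all tested genes, and a gene was called at an adjusted p (q) under 0.05. It called 9 of the 10 genes, against 74.3% of all genes tested, and GLG2 missed with q = 0.179. In the first cycle 9 of the 10 were highest at time point 2. In the second cycle 4 were highest at time point 12 and 6 at time point 13. Averaged over both cycles, the lowest position was position 8, that of the growth burst, for all 10, and 25.2% of all genes had their lowest position there. The highest was position 2 for 7 of the 10, where 7.27% of all genes had theirs, position 3 for GLG1 and GSY2 (5.89% of all genes), and position 6 for GLG2 (9.12%). GLG2 aside, the genes stood highest 13 to 26 min after the start of a cycle as sampled.

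In the slow condition the genes were lowest at the growth burst. Without the growth-burst time points, the highest library was 1.71-fold (GLG2) to 9.93-fold (PGM2) the lowest in fast and 1.34-fold (GLC3) to 2.25-fold (GPH1) in slow. GLG2 was the gene with a larger value in slow (1.76-fold) than in fast. The libraries left still held up to 414 RPKM of RPL17B in fast, against 267 in slow. The lowest fast value left fell on time point 17 (RPL17B 390 RPKM) for GSY1, GSY2, GAC1, PGM2, UGP1, GPH1 and GDB1. For GLG1, GLG2 and GLC3 it fell on time point 19 or 20. The exact rank test called 7 of the 10 genes, against 55.1% of all genes, and PGM2 (q = 0.545), UGP1 (q = 0.113) and GDB1 (q = 0.162) missed. With values scaled to the control RNAs the count was 4, against 43.8% of all genes, as GLG2, GAC1 and GLC3 no longer passed. Without the growth-burst time points it was 7, against 51.3% of all genes. GLG2 then missed and UGP1 passed (exact rank test q = 0.25 and 0.0496). A limma F test over the positions of the cycle, which assumes no wave shape, called all 10 in fast (84.1% of all genes) and all 10 in slow (85.2%). Among the 3 that missed the rank test in slow it gave q = 1.23e-07 for PGM2, 6.31e-06 for UGP1 and 8.86e-09 for GDB1, and for GLG2 in fast 0.000402. The lowest of the 24 slow libraries was a growth-burst time point for all 10 genes, in each case time point 12. Of all genes, 29.5% were lowest at time point 12 or 24. In the mean cycle position 12 was lowest for 9 of the 10 (29.4% of all genes), and position 3 for GAC1. Between 4 and 9 of the 10 fast positions lay above the middle of a gene's range, against 9 to 11 of the 12 slow positions.

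**Figure D2:**
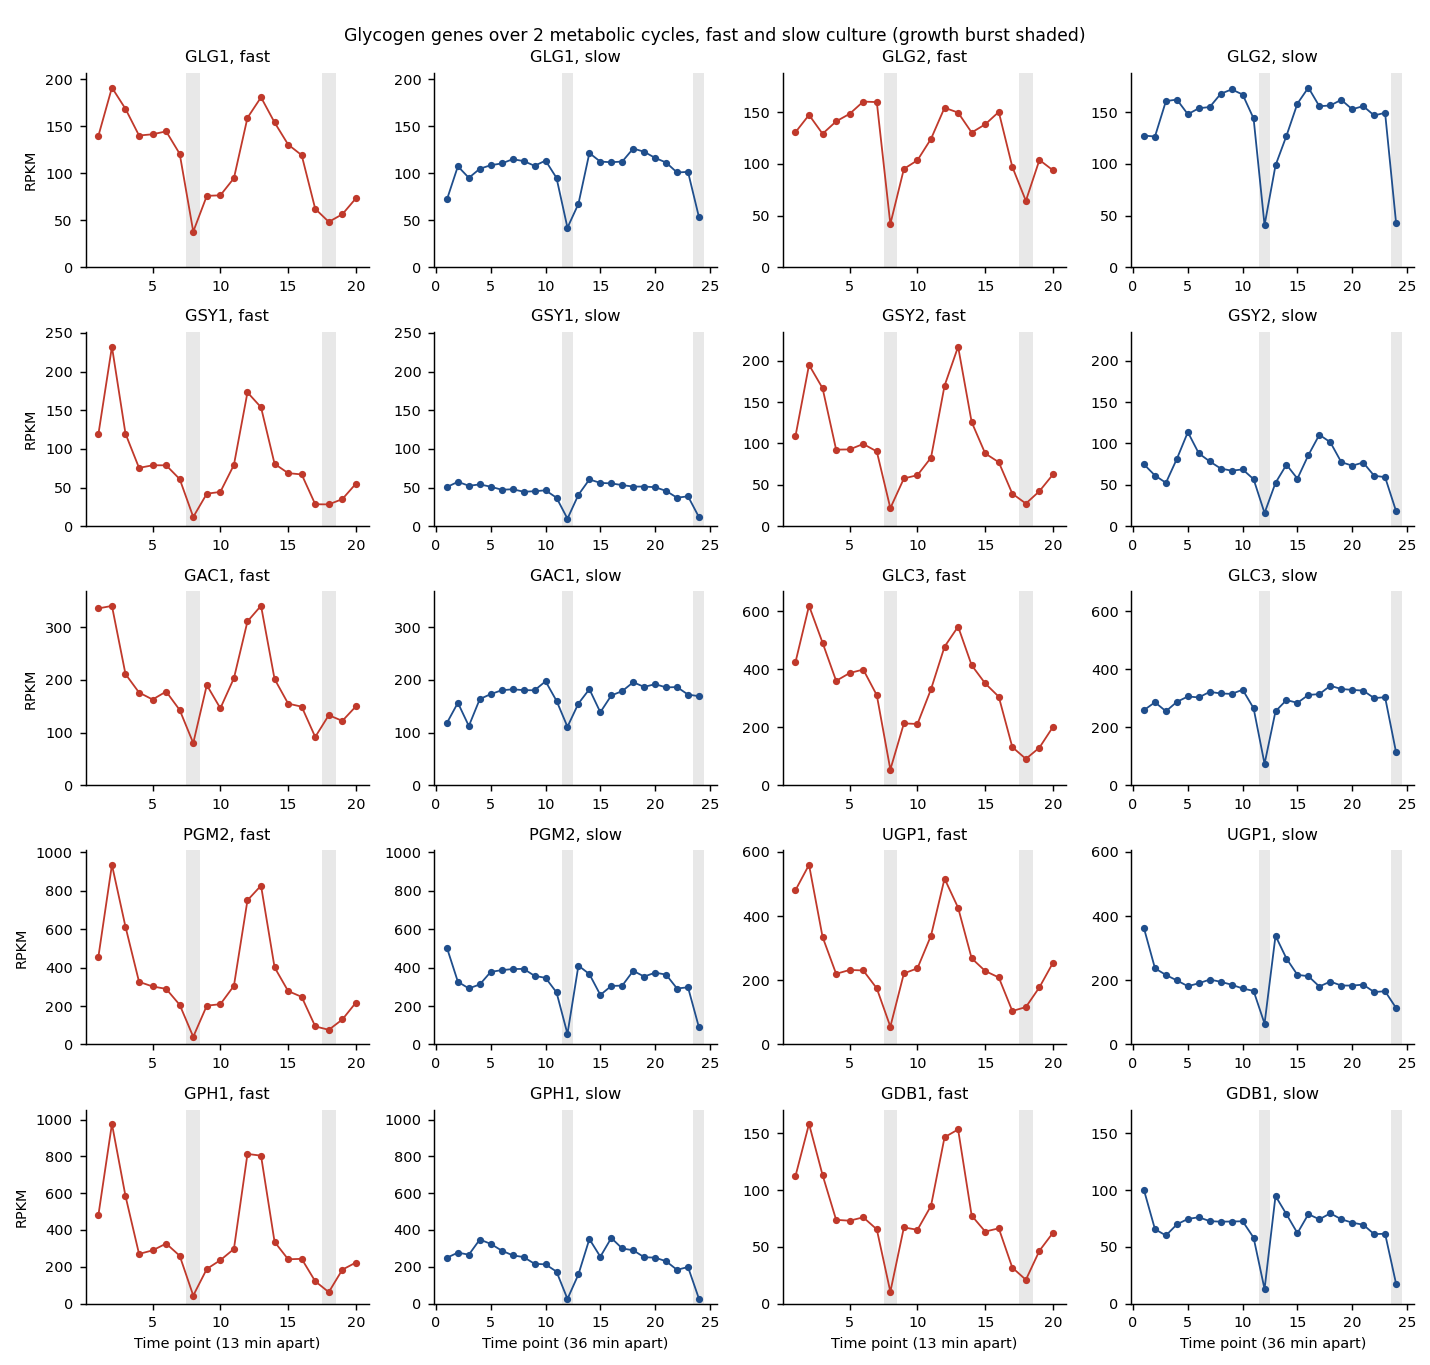
RPKM (y axis) of each of the 10 genes against time point, 13 min apart in fast (red, left of each pair) and 36 min apart in slow (blue), 1 point per library, with the growth-burst time points shaded. In fast the lines peak at time points 2, 12 or 13, except for the first cycle of GLG2, and in slow all 10 are lowest at time point 12, with a second low at time point 24 that GAC1 does not show.

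The glycogenin genes GLG1 (YKR058W, chromosome XI, 552770 to 554620) and GLG2 (YJL137C, chromosome X, 154985 to 156127) moved together in fast (r = 0.886 over 20 libraries) with swings of different size. GLG1 ran between 37.9 RPKM (time point 8) and 191 RPKM (time point 2) in fast, with a median of 126, and between 42.1 and 126 RPKM in slow, with a median of 109. In fast 10 of 20 libraries lay above the highest slow value. GLG2 ran between 41.8 and 160.2 RPKM in fast, with a median of 130.4, and between 40.7 and 174 RPKM in slow, with a median of 154. No fast library lay above the highest slow value of GLG2, and its fast values stayed close together outside the growth burst: the maximum over the minimum was 3.83-fold over all fast libraries and 1.71-fold without time points 8 and 18. GLG2 had the smallest fast cosine range of the 10 (peak-to-trough range of a cosine fitted to log2(RPKM + 1)), 0.90 ± 0.24 (SE) on the log2 scale.

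The synthase genes GSY1 (YFR015C, chromosome VI, 174265 to 176391) and GSY2 (YLR258W, chromosome XII, 660716 to 662833) encode paralogous enzymes, of which GSY2 is known as the main one in stationary cells. GSY1 ran between 12.1 and 232 RPKM in fast, with a median of 72.1, and between 9.87 and 60.6 RPKM in slow, with a median of 49.2. In fast 13 of 20 libraries lay above the highest slow value. GSY2 ran between 22.0 and 217 RPKM in fast, with a median of 89.2, and between 16.1 and 114 RPKM in slow, with a median of 71.4. Its slow maximum fell on position 5 in both cycles, with 114 and 110.5 RPKM, after 61.3 and 74.4 RPKM at position 2. GSY1 was highest at position 2 in both slow cycles, with 57.5 and 60.6 RPKM. The counting of reads that match both paralogs was not given in the sources used here, which leaves uncertain how reads split between GSY1 and GSY2 and between GLG1 and GLG2.

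GAC1 (YOR178C, chromosome XV, 667860 to 670241) encodes a subunit that directs the Glc7 phosphatase to glycogen synthase, which is active when dephosphorylated. It ran between 80.2 and 341 RPKM in fast, with a median of 169, and between 111 and 197 RPKM in slow, with a median of 176. Its slow course was the flattest of the 10, with a maximum 1.77-fold over the minimum. GAC1 was also the gene whose 2 fast cycles were least alike, with r = 0.625 over 10 positions. GLC3 (YEL011W, chromosome V, 133120 to 135234), the branching enzyme gene, ran between 54.6 and 619 RPKM in fast, with a median of 341, and between 74.2 and 343 RPKM in slow, with a median of 303. Without the growth-burst time points its highest value was 4.76-fold its lowest in fast and 1.34-fold in slow.

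PGM2 (YMR105C, chromosome XIII, 475897 to 477606), the main phosphoglucomutase gene, had the largest ratio of maximum to minimum of the 10 in fast. It ran between 40.0 and 934 RPKM in fast, with a median of 283, a 23.4-fold span, and between 55.0 and 503 RPKM in slow, with a median of 349.8, a 9.14-fold span. Only 4 fast libraries, time points 2, 3, 12 and 13, lay above the highest slow value. UGP1 (YKL035W, chromosome XI, 369891 to 371390), which encodes UDP-glucose pyrophosphorylase, ran between 55.5 and 559.6 RPKM in fast, with a median of 231, and between 64.9 and 361.5 RPKM in slow, with a median of 188. PGM2, UGP1 and GDB1 were highest at position 1 of both slow cycles, the position that follows the burst, where 23.5% of all genes had their highest mean. UGP1 had 362 RPKM at slow time point 1 and 339 at time point 13, against 163 to 268 RPKM at all other slow time points outside the burst.

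GPH1 (YPR160W, chromosome XVI, 861306 to 864014), the glycogen phosphorylase gene, reached the highest value of any of the 10. It ran between 43.5 and 977 RPKM in fast, with a median of 265, and between 25.2 and 356.5 RPKM in slow, with a median of 252. Its slow maximum fell on position 4 in both cycles, with 348 and 357 RPKM, and the values then declined to 174 and 199 RPKM at position 11. GDB1 (YPR184W, chromosome XVI, 902044 to 906654), the debranching enzyme gene, ran between 10.4 and 158 RPKM in fast, with a median of 70.0, and between 12.7 and 99.7 RPKM in slow, with a median of 72.2. The breakdown genes peaked with the synthesis genes in fast, both at time point 2 of the first cycle and at position 2 of the mean cycle. As RPKM is per length, levels can be set side by side: by the fast mean, GPH1 (349 RPKM), PGM2 (345), GLC3 (322) and UGP1 (269) stood above GAC1 (191), GLG2 (123), GLG1 (116), GSY2 (96.0), GSY1 (81.7) and GDB1 (78.4). Neighbours in this order differed by less than the larger of their SDs over libraries, which were 32.6 to 256 RPKM in fast.

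In RPKM, most of the genes dropped more than 2-fold into the growth burst at 3 of its 4 time points. The 10 genes were 1.78-fold (GAC1) to 6.31-fold (GDB1) lower at fast time point 8 than at 7, and 9 of them more than 2-fold, against 14.3% of all genes. GPH1 had 259.7 RPKM at time point 7 and 43.5 at time point 8. In the second fast cycle the genes were already low at time point 17 (GPH1 121, PGM2 94.1, GSY1 28.5 RPKM), and none was more than 2-fold lower at 18 than at 17 (6.17% of all genes). GAC1 and UGP1 were higher at 18 than at 17 (earlier over later 0.69 and 0.89), and GSY1 had nearly the same value (1.01). Between slow time points 11 and 12 the drop was 1.44-fold (GAC1) to 6.88-fold (GPH1), and 9 of 10 exceeded 2-fold, against 17.8% of all genes. Between slow time points 23 and 24 it was 1.02-fold (GAC1) to 7.58-fold (GPH1), and 7 of 10 exceeded 2-fold, against 12.6% of all genes. RPKM is a share of the library, and the control RNAs also took a smaller share at these slow libraries, 0.73% at time point 12 and 0.68% at 24, against 0.99% and 1.17% just before. Scaled to the control RNAs, the drop was 1.77-fold to 6.28-fold at fast time point 8 and 1.07-fold to 5.11-fold at slow time point 12. GLG1 (1.68-fold) and UGP1 (1.91-fold) then no longer exceeded 2-fold at slow time point 12. At slow time point 24 only GPH1 (4.56-fold), GDB1 (2.11-fold), GLG2 (2.08-fold) and PGM2 (2.01-fold) still did. UGP1 and GAC1 were higher at time point 24 than at 23 (ratios of the earlier to the later of 0.88 and 0.61).

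The genes followed one another closely in fast. Over the 45 pairs of genes, Pearson r of log2(RPKM + 1) across the 20 fast libraries had a median of 0.93, between 0.63 (GLG2 with GAC1) and 0.98 (GSY1 with PGM2). Across the 24 slow libraries the median was 0.86, between 0.06 (GAC1 with UGP1) and 0.98 (GSY1 with GPH1). Without the growth-burst time points the median was 0.91 in fast (18 libraries) and 0.25 in slow (22 libraries). In slow it then ran between -0.71 for GLG2 with UGP1 and 0.85 for GSY1 with GPH1. The points share library and depth, and these values are descriptions.

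**Figure D3:**
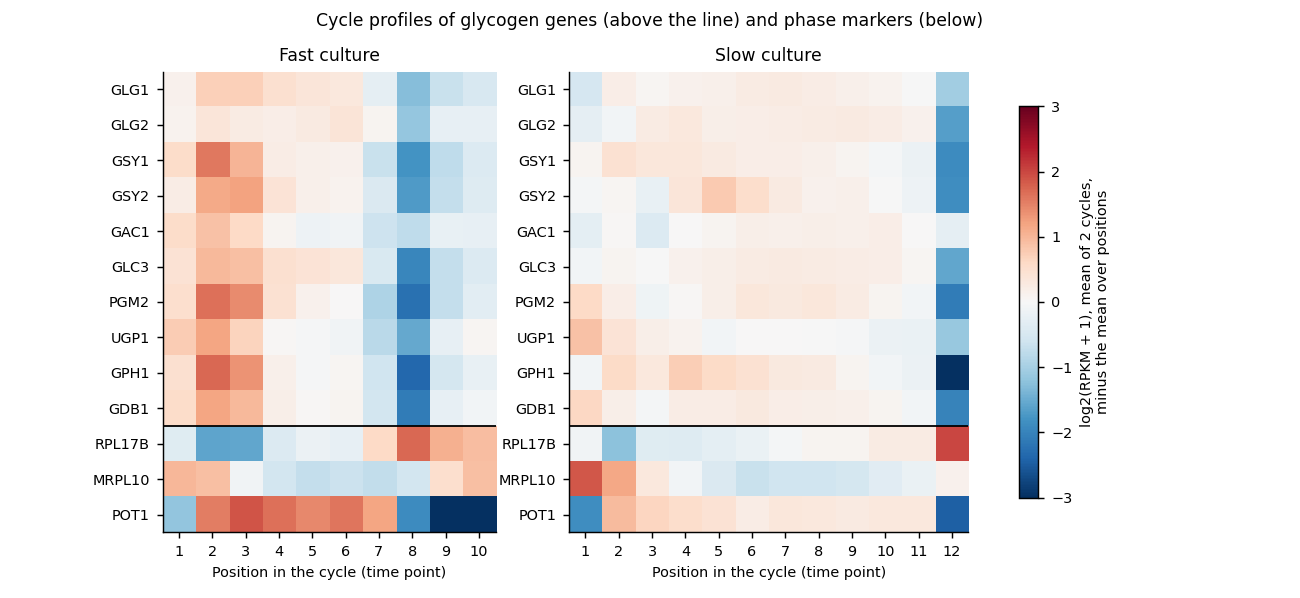
Heat map of the mean of both cycles at each position of the cycle (x axis), in log2(RPKM + 1) minus the gene's mean over positions (colour), for the 10 genes and, below the line, 3 phase markers, fast on the left and slow on the right. The fast profiles are highest at position 2 or 3 (GLG2 at position 6) and lowest at position 8, where RPL17B is highest, and the slow profiles are lowest at position 12, except that of GAC1, which is lowest at position 3.

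The swing was larger in fast than in slow for most of the genes. The cosine range was larger in fast for 7 of the 10 (z test of the difference, q under 0.05), against 41.4% of the 4796 genes that cycled in at least 1 condition. It was larger in slow for 0 of 10, also at an unadjusted p under 0.05, against 3.73% of those genes. The difference was largest for PGM2, whose range was 2.81 ± 0.35 in fast and 0.83 ± 0.37 in slow (SE, log2 scale), a difference of 1.98 ± 0.51 (q = 0.00125). UGP1 had 1.88 ± 0.28 in fast and 0.46 ± 0.26 in slow (difference 1.42 ± 0.39, q = 0.00189). GSY1 had 2.30 ± 0.34 in fast and 0.94 ± 0.31 in slow (difference 1.36 ± 0.46, q = 0.0113). GLC3 had 2.12 ± 0.33 in fast and 0.77 ± 0.25 in slow (difference 1.35 ± 0.42, q = 0.00552).

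Among the other genes, GDB1 differed by 1.27 ± 0.51 (q = 0.0326), GLG1 by 0.92 ± 0.28 (q = 0.00457) and GAC1 by 0.88 ± 0.24 (q = 0.00207). With scaling to the control RNAs GAC1 missed the exact rank test in both conditions (q = 0.0552 in fast and 0.191 in slow). Its range difference, 1.42, was then not tested, as only genes that cycled in at least 1 condition were. The GSY2 difference was 1.58 under that scaling and passed. The test missed for GPH1 (0.95 ± 0.62, q = 0.192), GSY2 (0.88 ± 0.40, q = 0.0591) and GLG2 (0.03 ± 0.36, q = 0.945). GPH1 and GSY2 had the widest slow cosine ranges of the 10, 1.62 ± 0.46 and 1.23 ± 0.28. A cosine understates a short dip, so the profile range (highest minus lowest position of the mean cycle, log2 scale, no test) is given beside it. It was larger in fast for 9 of the 10, against 53.6% of the 4796 genes. GLG2 was the exception, with 1.56 in fast and 1.98 in slow. The profile range had a median over the 10 genes of 2.91 in fast and 2.18 in slow, against 1.13 and 1.16 over all 5820 genes. Without the growth-burst time points the cosine range was larger in fast for 9 of 10, GSY2 and GPH1 included, against 53.7% of the 4819 genes then tested.

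**Figure D4:**
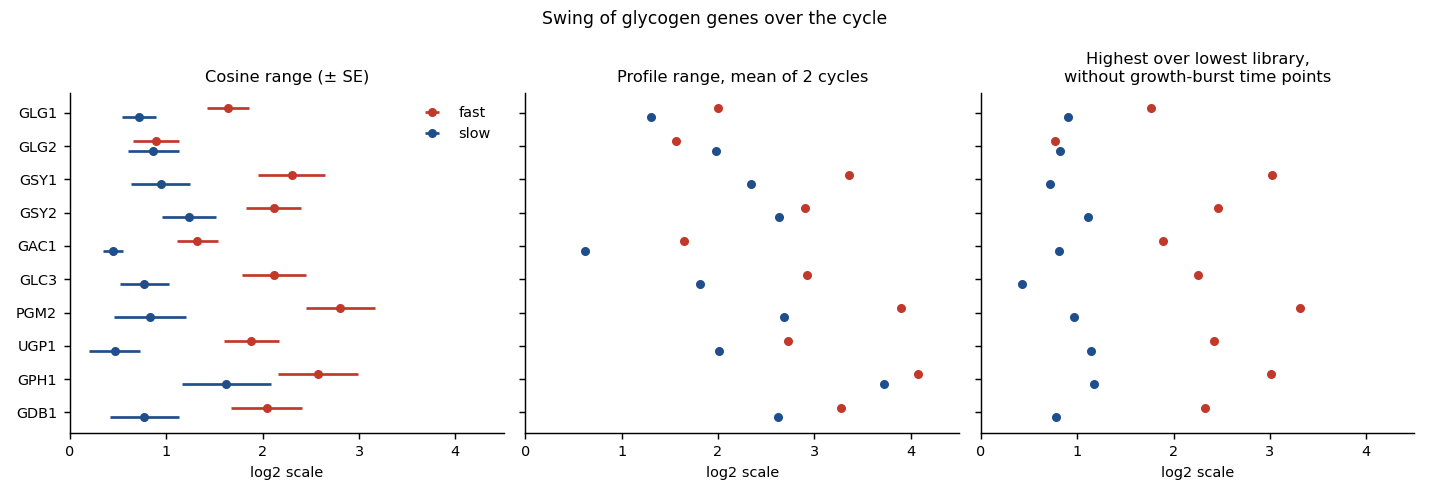
Cosine range ± SE (left), profile range (middle) and highest over lowest library without the growth-burst time points (right), all on the log2 scale, for each of the 10 genes, with fast in red above slow in blue. In the left panel PGM2 has the widest fast range (2.81) and GPH1 the widest slow range (1.62), and for GLG2 fast and slow (0.90 and 0.87) lie together.

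Mean levels differed little between the conditions. In limma, 1 of the 10 genes was higher in fast at q under 0.05 (17.9% of all genes were), and 0 were lower (20.4% of all genes), also at an unadjusted p under 0.05 and in limma with a mean-variance trend. That gene was GSY1, which averaged 81.7 ± 54.4 RPKM in fast (SD, n = 20) and 45.7 ± 12.4 RPKM in slow (SD, n = 24), a difference of 0.62 ± 0.24 (SE) on the log2(RPKM + 1) scale (limma q = 0.034). The call did not hold under median-of-ratios scaling or within either cycle alone, with differences of 0.62, 0.68 (first cycle) and 0.56 (second cycle). None of the 10 passed 2-fold, at the adjusted or an unadjusted threshold of 0.05, against 1.87% higher and 2.35% lower of all genes. The median difference over the 10 genes was 0.09, against 0.00 over all genes. Peaks differed more than means: the highest fast library lay above the highest slow library for 9 of the 10 (42.8% of all genes). The ratio was 3.83-fold for GSY1, 2.74-fold for GPH1 and 1.51-fold to 1.91-fold for the other 7, while GLG2 was at 0.92. Libraries were 13 min apart in fast and 36 min apart in slow, and the part of this interval in the peak values was not tested.

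Ratios of a pair of genes within a library do not depend on scaling, apart from the added 1, and 5 pairs were compared (permutation test, 100000 draws, two-sided, Benjamini-Hochberg over the 5). PGM2 over UGP1, the consecutive steps to UDP-glucose, had a mean log2 ratio of 0.16 ± 0.46 in fast and 0.66 ± 0.39 in slow (SD, n = 20 and 24), a difference of -0.50 ± 0.13 (SE, permutation adjusted p = 0.002). GSY2 over GSY1 had 0.29 ± 0.27 in fast and 0.58 ± 0.28 in slow, a difference of -0.29 ± 0.08 (permutation adjusted p = 0.003). GLG2 over GLG1 had 0.16 ± 0.34 in fast and 0.45 ± 0.25 in slow, also a difference of -0.29 ± 0.09 (permutation adjusted p = 0.005). In each of these 3 pairs the ratio was lower in fast, and fast and slow libraries overlapped. The permutation treats time points as exchangeable, although the ratios moved with the cycle, and its p-values do not measure a spread between cultures. The difference missed the threshold for GSY2 over GSY1 in the first cycle alone (-0.26) and for GLG2 over GLG1 in the second (-0.13).

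For GPH1 over GSY2 and GDB1 over GLC3, the difference between fast and slow was smaller than the SD over time points. Other pairs of a breakdown and a synthesis gene were not compared. GPH1 over GSY2 had a mean log2 ratio of 1.72 ± 0.34 in fast and 1.68 ± 0.43 in slow, a difference of 0.04 ± 0.12 (permutation adjusted p = 0.755). GDB1 over GLC3 had -2.03 ± 0.29 in fast and -2.09 ± 0.26 in slow, a difference of 0.06 ± 0.09 (permutation adjusted p = 0.621). Within a cycle the ratios moved. As a linear ratio of RPKM + 1, PGM2 over UGP1 was 1.94 at fast time point 13 and 0.657 at time point 18, and 2.07 at slow time point 5 and 0.783 at time point 24. GSY2 over GSY1 was 0.84 at fast time point 2 and 1.75 at time point 8, which the second fast cycle did not repeat (0.98 at time point 12, 1.55 at 14 and 0.97 at 18). In slow it was 1.00 at time point 3 and 2.20 at time point 5, and 1.02 and 2.06 at the same positions of the second cycle. The phosphorylase gene stood out least against the synthase gene at the burst: GPH1 over GSY2 was 4.99 at fast time point 2, 1.94 at 8 and 2.22 at 18, and 4.98 at slow time point 3, 1.54 at 12 and 1.40 at 24. GDB1 over GLC3 stood highest in slow at position 1, 0.387 at time point 1 and 0.374 at time point 13, and lowest, 0.161, at time point 24.

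**Figure D5:**
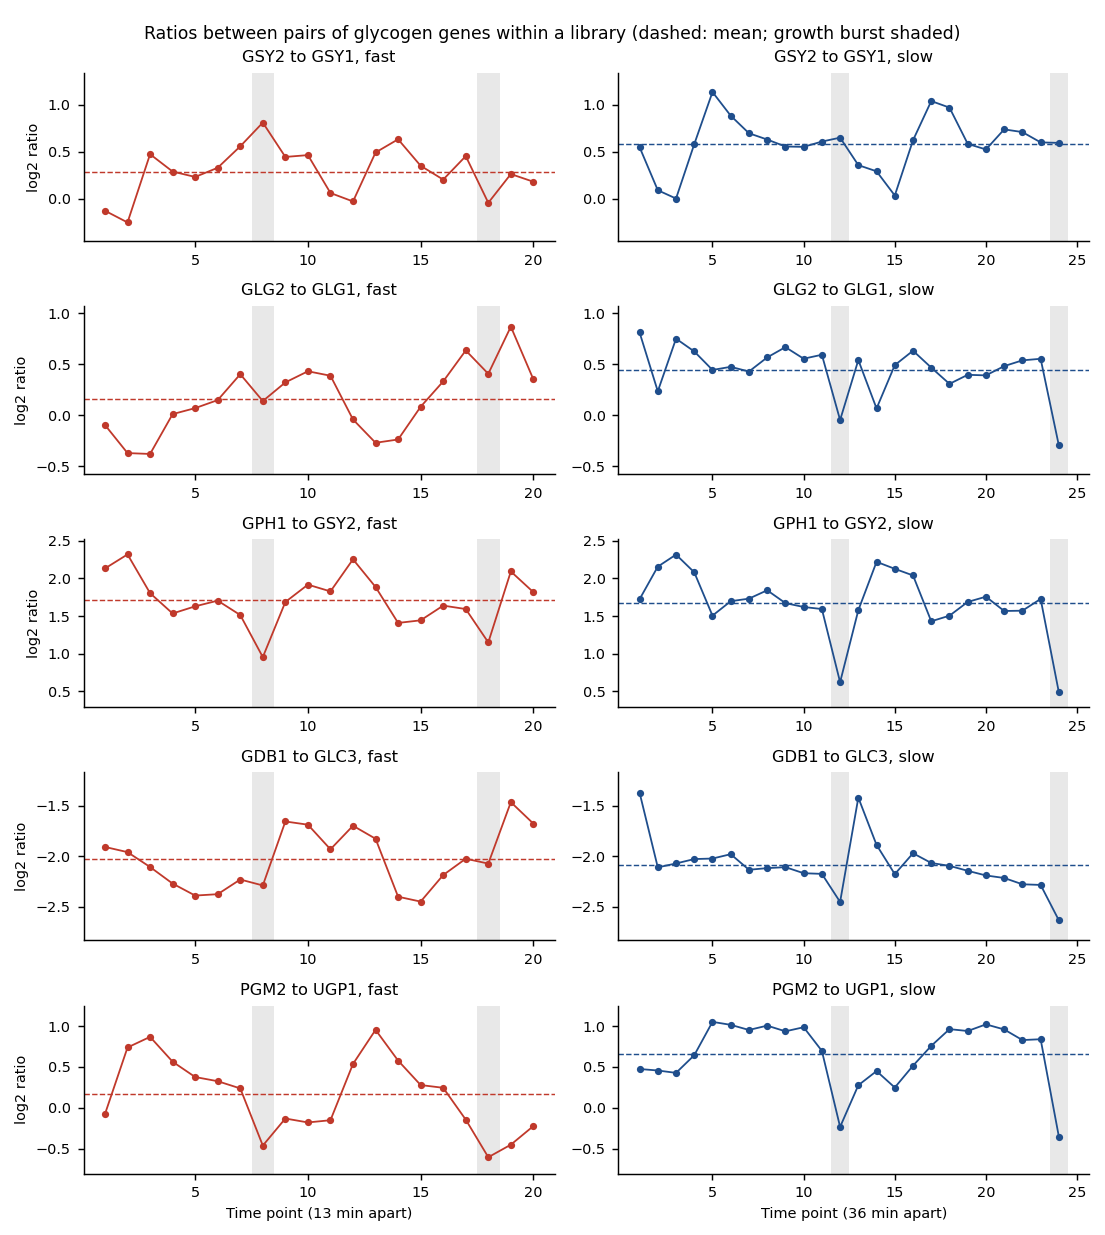
Log2 ratio of RPKM + 1 within each library (y axis) against time point for the 5 pairs of genes, fast on the left and slow on the right, with the mean dashed and the growth-burst time points shaded. The mean for PGM2 over UGP1 is 0.16 in fast and 0.66 in slow, and the points of both conditions overlap in every pair.

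A list of 26 regulators and neighbours of glycogen metabolism, chosen by role, was set beside the 10 genes. The exact rank test called 17 of the 26 in fast and 12 in slow, against 74.3% and 55.1% of all genes. The median cosine range was 0.92 in fast and 0.56 in slow, against 0.84 in fast and 0.54 in slow over all genes, and 2.08 in fast and 0.80 in slow over the 10 genes. On the phosphatase side 3 of 5 cycled in fast and 2 in slow. GIP2, a putative regulatory subunit of Glc7, had the widest range of the list, 4.01 ± 0.47 in fast and 2.17 ± 0.52 in slow (SE), with 27.1 to 709 RPKM in fast and 39.1 to 516.5 RPKM in slow. PIG2, another putative Glc7 subunit, had 1.77 ± 0.32 in fast and 1.52 ± 0.25 in slow. On the kinase side, which holds Pho85, its cyclins and Snf1, 5 of 8 cycled in fast and 2 in slow.

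Of the 4 genes of glucose phosphate entry, 3 cycled in fast and 3 in slow, against 74.3% and 55.1% of all genes. The hexokinase gene HXK1 had a range of 3.68 ± 0.26 in fast and 0.61 ± 0.41 in slow, where it missed the exact rank test (q = 1). The glucokinase gene GLK1 had 2.67 ± 0.26 in fast and 1.13 ± 0.34 in slow. Both were lowest at the growth burst. HXK2, the hexokinase of cells growing on glucose, ran the other way: its range was 2.71 ± 0.26 in fast and 1.14 ± 0.33 in slow, with its highest position at 9 in fast and 12 in slow. Both breakdown genes of the list, IGD1 (an inhibitor of the debranching enzyme) and SGA1 (a glucoamylase of sporulating cells), cycled in fast, and SGA1 also in slow. Of the 7 cAMP and stress regulators 4 cycled in each condition, again against 74.3% of all genes in fast and 55.1% in slow. Of the 19 genes of the list that cycled in at least 1 condition, 11 had a larger range in fast (41.4% of all such genes) and 0 in slow (3.73%), also at an unadjusted p under 0.05.

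In mean level 2 of the 26 were higher in fast (17.9% of all genes) and 8 lower (20.4%). None passed 2-fold at the adjusted or an unadjusted threshold of 0.05 (limma), against 1.87% higher and 2.35% lower of all genes. The 2 higher genes, named after their values were seen, were MSN2 (0.16 ± 0.06, SE, limma q = 0.02) and MSN4 (0.32 ± 0.10, limma q = 0.0063), which encode the factors known to bind AGGGG. Neither passed the exact rank test in fast (MSN2 q = 1, MSN4 q = 0.0957) or in slow (MSN2 q = 1, MSN4 q = 0.0981).

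The genes most like the 10 were named by Pearson r over the 44 libraries with the mean of the 10 courses (each standardised within its condition), among those averaging 10 RPKM or more. The 6 highest were TPS1 (r = 0.98), YKL091C (0.97), DCS1 (0.97), HER1 (0.97), TSL1 (0.97) and TPK2 (0.96). TPS1 and TSL1 encode subunits of the trehalose synthase complex, DCS1 an mRNA cap-scavenging protein and TPK2 a catalytic subunit of protein kinase A. TPS1 ran between 69.8 and 731 RPKM in fast and between 79.6 and 546 RPKM in slow. All 6 were lowest at position 8 in fast and at position 12 in slow, where 25.2% and 29.4% of all genes had their lowest position. The 6 were picked by likeness to the 10 courses in these same libraries, so the shared lows follow from the choice. Each of the 10 genes is part of the mean it is set against, and their own r ran from 0.70 (GAC1) to 0.98 (GLC3). The libraries share depth and scaling, so these values describe likeness and carry no test.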

How the data were processed

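Per the labels' protocols, external control RNAs of the ERCC set were added to total RNA before poly(A) selection and stranded library preparation, and RNA was extracted in 4 groups to which samples were assigned at random. Which sample was in which group was not given in the sources used here, and its part in the results was not tested. The authors deposited RPKM values per gene, counted by HOMER on the sense strand, per the file headers, on build sacCer3. FastQC 0.10.1 and TopHat2 2.0.10 were used per the submitters' processing notes. Treatment of reads with several matches: not given in the sources used here.

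All 44 columns matched 1 sample each. Low RPKM values were whole multiples of 1 read (tolerance 0.1) in 100% of values checked, which gave the depth. Genes averaging 1 RPKM or more were tested. Cycling used an own exact JTK_Cycle-type rank test (periods of 9 to 11 intervals in fast, 11 to 13 in slow, Bonferroni over periods and phases, Benjamini-Hochberg over genes). Ranges came from cosines at the nominal period (10 or 12 intervals), fitted on log2(RPKM + 1), and were compared by z test, with errors from the delta method. The cosine, range and level values depend on the pseudocount of 1 and understate the change of low genes. Level differences, fast minus slow, came from limma 3.58.1 under R 4.3.3, and pair ratios by permutation (100000 draws). The cycling and level tests were checked on simulated data for recovery and for false calls, and the range test for recovery alone. The simulated cycles were cosines with independent noise, so short dips and dependence between time points were not covered. The other steps ran in Python 3.11.15 (pandas 2.3.3, scipy 1.17.1, numpy 2.4.6; plots with matplotlib 3.10.9).

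Named genes were the 10 genes, 3 phase markers (RPL17B, MRPL10 and POT1), the 4 genes of the 26-gene list with the widest range among those cycling in each condition or past 2-fold in level, and the 6 genes most like the 10. IGD1, SGA1, MSN2 and MSN4 fall outside this rule and were named after their values were seen. The genes and lists were chosen with earlier results of these data known. Start and end were the same as in RefSeq's R64 annotation for 6000 of 6008 yeast genes found there (99.87%), and for all 10 genes. Alternatives changed the scaling, filter, pseudocount, test, periods, threshold and libraries.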

Additional observations from a re-analysis of the deposited data

Results flagged for a closer look

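The cosine range differed between the conditions for 7 of the 10 genes in a test of the difference itself (z test, Benjamini-Hochberg over 4796 genes), and 41.4% of those genes had a larger range in fast. On the log2 scale, fast minus slow, the difference was 1.98 for PGM2, 1.42 for UGP1, 1.36 for GSY1, 1.35 for GLC3, 1.27 for GDB1, 0.92 for GLG1 and 0.88 for GAC1. With 1 culture per condition, dilution rate, culture and sampling interval (13 min in fast, 36 min in slow) cannot be told apart in these differences.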

How the results depend on the processing

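No paired analysis was possible because the numbers that fast and slow libraries share are time points of different cultures and not replicates. Of the 10 genes, 9 cycled in fast and 7 in slow, and with scaling to the control RNAs 8 cycled in fast and 4 in slow. The control RNA scaling also left 25.3% of all genes cycling in fast and 43.8% in slow, and moved the median level difference of all genes to 0.20 on the log2 scale, and that of the 10 genes to 0.29. By profile range with no test, 1 gene (GLG2) had a larger range in slow, against 0 by cosine range. The count of genes higher in fast at any size, 1, was 0 with median-of-ratios scaling, 0 in the first cycle alone, 0 in the second and 2 without the growth-burst time points, where 1 gene (GLG2, -0.22) was lower. Of all 5820 genes, 1040 were higher in the main setting, 1248 with median-of-ratios scaling, 519 in the first cycle and 390 in the second. Without the growth-burst time points 1256 of all genes were higher and 1405 lower. The fast minus slow difference in log2 ratio of GSY2 to GSY1 was -0.26 in the first cycle alone (permutation adjusted p = 0.115), and that of GLG2 to GLG1 was -0.13 in the second (permutation adjusted p = 0.428). The same difference for GDB1 to GLC3, which passed no threshold, was -0.026 in the first cycle alone (permutation adjusted p = 0.98), against 0.06 over both. The cause of these changes was not tested. Of the other values recomputed for these counts and ratios, 89 kept their direction and side of the threshold, or stayed within 1.5 times the count. For single genes, 341 kept theirs, 15 newly passed a threshold, 14 no longer did or were no longer tested, and none changed sign where called. With 1 culture per condition, no value here carries the spread between cultures.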
